A study of Mus musculus with 223 samples.

Results

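Gad1, Gad2, Slc32a1, Slc6a11 and Abat carry GABA through its life in the brain. Their levels were read here in single cells sorted as cortical interneurons (INs) of the late embryonic and newborn mouse. These 5 genes were taken by name from the 43629 genes counted, and all 5 were matched to an Ensembl identifier. The measurements came from single-cell libraries of Htr3a-GFP+ cells, sorted by FACS from whole cortex of transgenic mice of both sexes on a C57BL/6 background. In these mice eGFP is driven by regulatory sequences of Htr3a, a serotonin receptor subunit gene, which labels INs derived mainly from the caudal ganglionic eminence, and no other genotype, strain or agent was compared. Embryonic day 18 (E18) gave 82 cells, postnatal day 2 (P2) 66 and postnatal day 5 (P5) 75.

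The E18 cells form 1 group without a type. The P2 cells are 22 of type 1, 31 of type 2 and 13 of type 3, and the P5 cells are 34 of type 1, 19 of type 2 and 22 of type 3. Embryos or pups of an age were pooled before sorting, so each age is 1 sample, cells are not replicates, and no p-value was computed for any difference. The types were assigned by the study from these same counts, so levels by type are a description. E18 and P2 cortices were dissociated in Pronase at a higher temperature and for a shorter time than P5 cortices, which cannot be told apart from age. Prefixes in the cell labels sort the libraries into 4 sets, written A, B, C and D below, and no source says what the prefixes stand for. Set A holds every P2 cell (66) and nothing else. Sets B, C and D hold 48, 9 and 25 E18 cells and 15, 17 and 43 P5 cells, so P2 and its set cannot be told apart, while E18 and P5 share 3 sets. The study lists its capture chips by age, and the labels tie no cell to a chip. Chip and pool therefore cannot be told apart from age, also within a set.

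GABA is the main inhibitory transmitter of the mature cortex. It is made from glutamate by the decarboxylases encoded by Gad1, which serves the general cellular pool, and Gad2, which is tied more closely to synaptic vesicles. The vesicular transporter encoded by Slc32a1 loads it into vesicles, and transporters of the plasma membrane take it up after release. Slc6a11 encodes the transporter typical of astrocytes. GABA transaminase, encoded by Abat, then breaks it down in mitochondria. In young neurons GABA is made and released before synapses are mature.

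All 5 genes lie on the forward strand of GRCm38. Gad1 (ENSMUSG00000070880) spans chr2:70553072-70602014, Gad2 (ENSMUSG00000026787) chr2:22622205-22693874 and Slc32a1 (ENSMUSG00000037771) chr2:158610767-158615748. Slc6a11 (ENSMUSG00000030307) spans chr6:114131241-114249952 and Abat (ENSMUSG00000057880) chr16:8513429-8621568. Gad1, Slc32a1 and Slc6a11 each overlap a gene of the other strand, and Gad2 overlaps the small RNA genes Gm23636 and Mir3967. Whether counting used strand is not stated. The overlapping genes in the count table held 9 read pairs (Gad1os), 21 (Gm14205, across Slc32a1) and 788 (Gm23636) over all cells, against 636519 read pairs of Gad1, 5720 of Slc32a1 and 702433 of Gad2.

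Levels are given in RPM, the count of read pairs per 1000000 mapped read pairs of the cell. A pooled RPM sums a gene over the cells of a group. A gene was called present in a cell when it exceeded 10 RPM. Mapped read pairs per cell ranged from 3707601 to 15840130. Pooled values have exact 95% Poisson intervals and shares of cells exact 95% binomial intervals. Libraries carried no molecular identifiers, so these intervals cover counting error only. A 0 is given instead with the limit of 3 counts or 3 cells, which lies below the upper end of the exact interval.

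Most cells carried IN identity genes. At least 3 of the 8 interneuron markers read were above 10 RPM in 68 of 82 E18 cells, 46 of 66 P2 cells (6 of 13 in type 3) and 69 of 75 P5 cells, and none of the 8 was in 5, 4 and 1 cells. Each of these markers, among them Dlx1, Dlx2, Dlx5, Htr3a and Sp9, was above 10 RPM in some cell of each group except P2 type 3, where Dlx2 was at 0 and 6 of the 8 passed. By a rule on several markers of another cell type at once, 16 cells of the series are called marked below, and single markers of other types were above 10 RPM in further cells. Of the 16, 12 were E18 cells with at least 3 of 7 excitatory neuron markers above 10 RPM, 2 of them in set B, 1 in set C and 9 in set D, with Neurod6 up to 1411 RPM, and 1 of them also had 4 astrocyte markers. The other 4 were P5 type 2 cells with at least 4 of 9 astrocyte or radial glia markers above 10 RPM. Of these 4, 1 also had 5 of the 5 oligodendrocyte lineage markers above 10 RPM, against 4 astrocyte markers, with Gfap and Aldoc at 0. The summed excitatory markers stood at 140.4 RPM at E18, 23.1 RPM in P2 cells and 2.94 RPM in P5 cells, and the summed astrocyte markers stood at 2145 RPM in P5 type 2 and at 64.4 to 323 RPM elsewhere. Slc17a7, a defining marker of mature excitatory neurons, was at 0 at P2 and P5, and red blood cell markers were at 0 throughout. This rule for marked cells was chosen after the data had been seen.

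GABA synthesis genes were the commonest of the 5. At least 1 of Gad1 and Gad2 exceeded 10 RPM in 94.2% of all cells (95% interval 90.2 to 96.9%), and both did in 60.1% (53.3 to 66.6%). By age, the share with at least 1 of the pair was 93.9% at E18 (86.3 to 97.99%), 89.4% in P2 cells (79.4 to 95.6%) and 98.7% in P5 cells (92.8 to 99.97%). The study states that every cell kept had reads on at least 1 of 6 IN transcripts, among them Gad1 and Gad2. Detection of the pair is therefore not independent of how the cells were described.

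**Figure D1:**
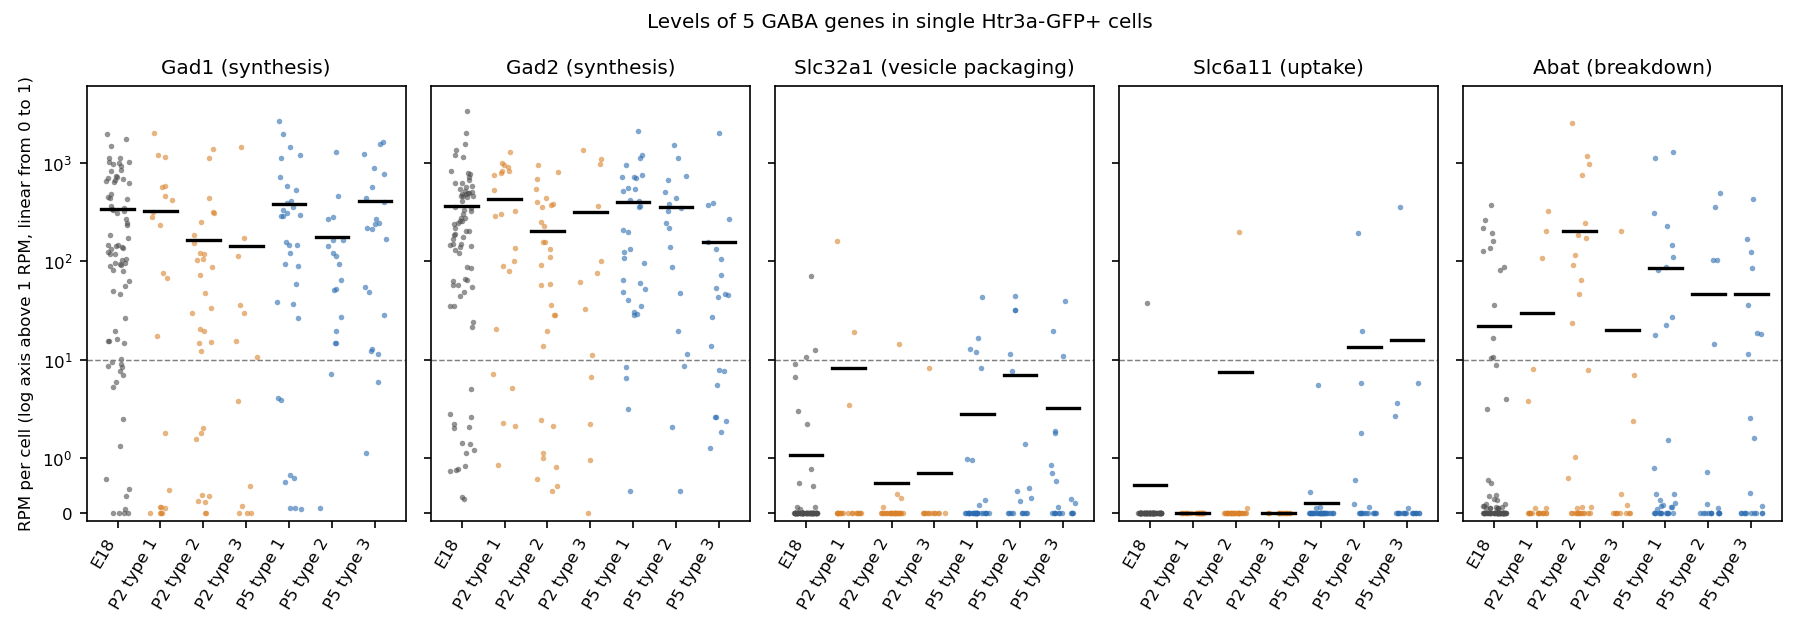
Level of each gene in every cell (points, RPM, log axis above 1 RPM and linear from 0 to 1) by age and type, with the pooled RPM of the group as a black bar and 10 RPM as a dashed line. Gad1 and Gad2 reach 2679 and 3369 RPM, Slc32a1 stays at or below 161.8 RPM, and the bars of Slc6a11 rest on 1 or 2 cells.

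Gad1 had a pooled level of 340 RPM at E18 (338.5 to 341 RPM), with cells from 0 to 1939 RPM and a median of 127.6 RPM. At P2 it was 326 RPM in type 1, 164.3 RPM in type 2 and 142.2 RPM in type 3. At P5 it was 378 RPM in type 1, 175.3 RPM in type 2 and 410 RPM in type 3. The single cells overlapped fully between groups: the highest cells ranged from 1280 RPM (P5 type 2) to 2679 RPM (P5 type 1), and the lowest were at 1.12 RPM or less in each group. One cell could carry much of a pooled level, since the highest P2 type 3 cell held 80.5% of that group's Gad1 read pairs and the other 12 cells came to 30.1 RPM.

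From highest to lowest, the pooled Gad1 levels ran P5 type 3, P5 type 1, E18, P2 type 1, P5 type 2, P2 type 2 and P2 type 3. Parts of this order turned without the highest cell of each group. P5 type 2 (113.2 RPM) then lay below P2 type 2 (122.9 RPM), and P5 type 1 (316.2 RPM) was level with E18 (316.5 RPM). Over library sets B, C and D, Gad1 ranged from 314 to 427 RPM at E18, from 241 to 628 RPM in P5 type 1 and from 321 to 1073 RPM in P5 type 3, so these 3 neighbours in the order overlapped. P5 type 2 ranged from 45.4 to 223.4 RPM and lay below E18 in every set. Its own sets hold 2, 3 and 14 cells. P2 cells belong to 1 set and give no such range.

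Shares of cells set the groups in another order. Gad1 was above 10 RPM in 64 of 82 E18 cells (78.05%, 67.5 to 86.4%), 42 of 66 P2 cells (63.6%, 50.9 to 75.1%) and 63 of 75 P5 cells (84%, 73.7 to 91.4%). P5 type 2, low in pooled level, had the gene in 17 of 19 cells (89.5%), close to the 20 of 22 cells of P5 type 3 (90.9%), with intervals of 66.9 to 98.7% and 70.8 to 98.9%. The upper quartiles of Gad1 per cell in these types were 164.9 and 540 RPM.

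Gad2 was at 365 RPM at E18 (363.6 to 366 RPM), with cells from 0.257 to 3369 RPM and a median of 196.7 RPM. At P2 it was 431 RPM in type 1, 203.4 RPM in type 2 and 316 RPM in type 3. At P5 it was 399 RPM in type 1, 356 RPM in type 2 and 155.6 RPM in type 3. The low level of P5 type 3 was low in most of its cells: the median was 44.3 RPM, and without its highest cell, at 2009 RPM, the pooled level was 70.9 RPM. Medians in the other P5 types were 165.5 RPM and 242 RPM.

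Within sets, Gad2 in P5 type 3 was 72.3 RPM in set B, 75.2 RPM in set D and 747 RPM in set C, where 1 of the 3 cells is the highest one. At E18 the sets gave 433, 254 and 300 RPM in the order B, D and C. P5 type 3 was therefore below E18 in sets B and D and above it in set C. In the order of pooled Gad2 levels (P2 type 1, P5 type 1, E18, P5 type 2, P2 type 3, P2 type 2 and P5 type 3), the ranges over sets of P5 type 1 (310 to 536 RPM), E18 (254 to 433 RPM), P5 type 2 (269 to 703 RPM) and P5 type 3 all overlapped.

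Gad2 was above 10 RPM in 66 of 82 E18 cells (80.5%, 70.3 to 88.4%), 49 of 66 P2 cells (74.2%, 61.99 to 84.2%) and 60 of 75 P5 cells (80%, 69.2 to 88.4%). Among P5 types the shares were 30 of 34 (88.2%), 16 of 19 (84.2%) and 14 of 22 (63.6%). At least 1 read pair of Gad2 was present in every cell but 1, and of Gad1 in every cell but 13. The 12 E18 cells with excitatory markers all had some Gad2, with a median of 2.71 RPM at a median of 9386401 mapped read pairs. Of these 12, 5 were above 10 RPM, and the highest was at 452.7 RPM. The other 70 E18 cells had a median of 249 RPM at 9714203 mapped read pairs. A share of cells with any Gad2 read pair was therefore not read as expression.

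**Figure D2:**
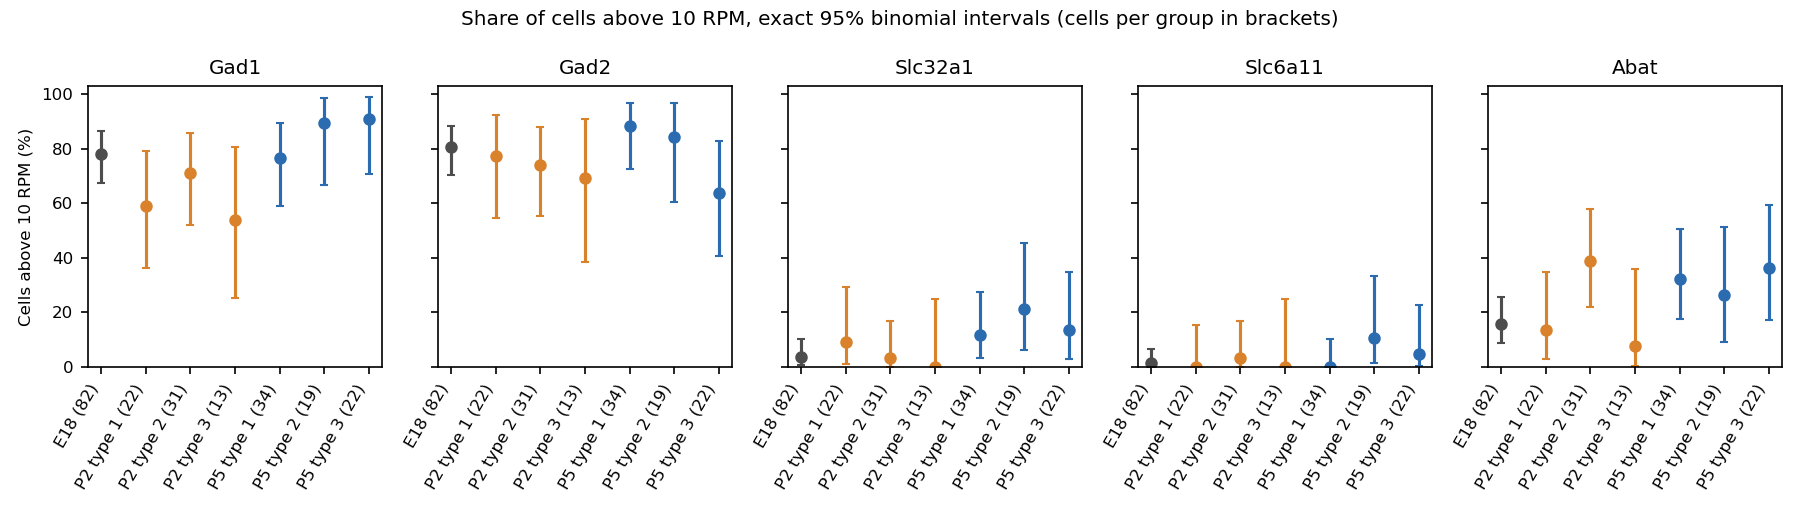
Share of cells above 10 RPM (points, %) with exact 95% binomial intervals (bars) for each gene, by age and type, with the number of cells in brackets. Gad1 and Gad2 lie between 53.8% and 90.9%, Slc32a1 at or below 21.1%, Slc6a11 at or below 10.5%, and Abat between 7.69% and 38.7%.

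Per kb of exon, pooled Gad2 stood above pooled Gad1 in the groups other than P5 type 3, but the order varied between library sets. At E18 Gad2 was at 1.79 times Gad1 per kb in set B and at 0.913 and 0.911 times in sets C and D. In P5 type 1 it was at 2.89, 0.745 and 1.497 times in sets B, C and D. In P5 type 2 it was above Gad1 in each set, at 10.5, 11.9 and 1.57 times, on 2, 3 and 14 cells. Over all cells the levels were 56.9 RPM per kb for Gad2 and 39.6 RPM per kb for Gad1, a ratio of 1.43. In P5 type 3 the order was turned, with Gad1 at 2.03 times the level of Gad2 per kb, and in P5 type 2 Gad2 was at 2.64 times Gad1. On read pairs, the log2 ratio of Gad1 to Gad2 in P5 type 3 was 1.40 over all 22 cells, 2.43 without the highest cell of each gene, and 2.01 as the median over cells. It was 3.89 in set B, 2.09 in set D and -0.45 in set C. Gad1 exceeded Gad2 in 15 of the 22 cells (68.2%, 45.1 to 86.1%), against 39 of 82 cells at E18 (47.6%, 36.4 to 58.9%), and these intervals overlap.

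Across all cells the log2 ratio of Gad1 to Gad2 ran from -10.38 to 10.38, and in 54.7% of them the 2 genes were more than 4-fold apart. Among the cells with both above 10 RPM the span was -5.44 to 6.70. Cells above 10 RPM for Gad1 only numbered 11, 10 and 14 in the order E18, P2 and P5, and those for Gad2 only 13, 17 and 11. Of the 14 P5 cells with Gad1 only, 8 were of type 3. Over all cells, log2(RPM + 1) of Gad1 and of Gad2 had a Pearson's r of 0.14, given as a description since the cells share library sets and depth.

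**Figure D3:**
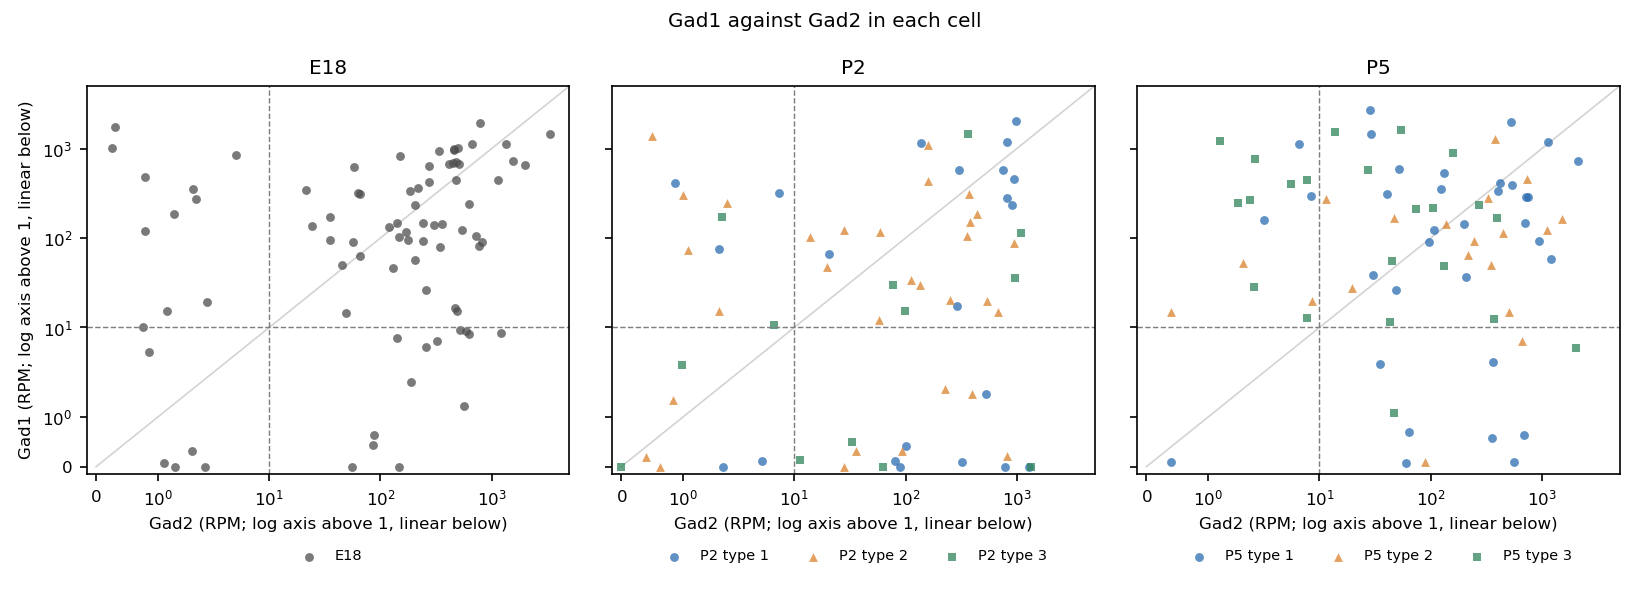
Gad1 against Gad2 in each cell (RPM, log axes above 1 and linear below) at E18, P2 and P5, with 10 RPM as dashed lines and equal levels as a grey line. Points lie in all 4 corners, with 60.1% of cells above 10 RPM for both genes and 13 cells above it for neither.

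Neither gene passed 10 RPM in 13 cells, of which 5 were E18, 7 P2 and 1 P5 cells. Of the 5 E18 cells, 4 carried at least 3 excitatory markers, with Neurod6 between 166.9 and 1411 RPM, and 3 of the 5 had none of the 8 IN markers above 10 RPM. The 5th had Dlx1 at 1001 RPM. None of the 8 cells at P2 and P5 carried 3 excitatory markers, but 2 of them, both P2 cells, had none of the 8 IN markers above 10 RPM, and 1 of these 2 had 2 excitatory and 2 astrocyte markers, with Slc1a3 at 430.9 RPM. The 1 P5 cell with neither gene, of type 1, had Htr3a at 1664 RPM and Dlx1 at 469 RPM. Without the 16 marked cells, at least 1 Gad gene was present in 98.6% of E18 cells and 98.6% of P5 cells.

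Slc32a1, the vesicle loader, was scarce at every age. Its pooled level was 1.07 RPM at E18 (1.00 to 1.15 RPM), 3.34 RPM at P2 (3.19 to 3.48 RPM) and 4.03 RPM at P5 (3.88 to 4.18 RPM). It passed 10 RPM in 3 of 82 cells at E18 (3.66%, 0.761 to 10.3%), 3 of 66 at P2 (4.55%, 0.947 to 12.7%) and 11 of 75 at P5 (14.7%, 7.56 to 24.7%). Per kb of exon, Gad1 stood above Slc32a1 in each group, at 9.13 times (P5 type 2) to 115.7 times (E18), and Gad2 at 22.98 times (P5 type 3) to 205.5 times (P2 type 3). The size of these ratios rests on few cells. At E18, 1 cell at 71.2 RPM held 46.9% of the Slc32a1 read pairs, and the level was 0.574 RPM without it. In the list of 26 GABA pathway genes Slc32a1 ranked between 12 and 19 per kb by group, where Gad2 ranked between 1 and 3 and Gad1 between 1 and 6.

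By type, Slc32a1 was at 8.16 RPM in P2 type 1, 0.544 RPM in P2 type 2, 0.732 RPM in P2 type 3, 2.84 RPM in P5 type 1, 7.03 RPM in P5 type 2 and 3.22 RPM in P5 type 3. Single cells set the P2 values: 1 cell at 161.8 RPM held 87.3% of the read pairs of P2 type 1, and the other 21 cells came to 1.09 RPM. In P2 type 3 all 61 read pairs came from 1 cell at 8.20 RPM, and 0 of 13 cells passed 10 RPM, which allows a share of up to 23.1%. The P5 values were spread wider, with highest cells of 43.8, 44.1 and 39.4 RPM in types 1, 2 and 3 and 4, 4 and 3 cells above 10 RPM.

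At least 1 read pair of Slc32a1 was found in 13 of 82 E18 cells (15.9%), 8 of 66 P2 cells (12.1%) and 30 of 75 P5 cells (40%), the last made up of 9 of 34, 10 of 19 and 11 of 22 cells of types 1, 2 and 3. In the 51 cells with any, the number of read pairs ranged from 1 to 1576 with a median of 20. Within library sets, the pooled level was higher at P5 than at E18 in all 3: 2.21 against 1.06 RPM in set B, 4.21 against 0 RPM in set C, and 4.65 against 1.46 RPM in set D. The 9 E18 cells of set C held no read pair.

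All 17 cells above 10 RPM for Slc32a1 were also above 10 RPM for Gad1 or Gad2, and 14 of them for both. The highest of all, the P2 type 1 cell at 161.8 RPM, had 66.8 RPM of Gad1 and 20.3 RPM of Gad2. The share with Slc32a1 was 10.4% among cells with both Gad genes (14 cells, 5.83 to 16.9%) and 3.95% among the 76 with 1 of them (3 cells, 0.822 to 11.1%), intervals that overlap. It was 0 of 13 with neither, which allows a share of up to 23.1%. Of the 12 E18 cells with excitatory markers, 1 was among the 17, at 10.7 RPM.

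The other vesicular transporters of the list load glutamate. Slc17a6 passed 10 RPM in 7 E18 cells (8.54%), 2 P2 cells (3.03%) and 1 P5 cell (1.33%). Slc17a8, which some GABA neurons also use, passed it in 6, 4 and 7 cells (7.32%, 6.06% and 9.33%). In P5 types 1, 2 and 3 the shares were 2.94% (0.0744 to 15.3%), 5.26% (0.133 to 26.03%) and 22.7% (7.82 to 45.4%). These intervals overlap. Pooled levels of Slc17a8 in the 3 types were 2.52, 4.89 and 4.78 RPM, and 2.37, 2.14 and 3.86 RPM without the highest cell. Per kb, the order of Slc17a8 and Slc32a1 turned between groups. Slc17a8 was above Slc32a1 at E18 (0.497 against 0.384 RPM per kb) and in P2 types 2 and 3, and below it in P2 type 1 and in the P5 cells (0.783 against 1.44 RPM per kb). Single cells weighed on this order. Without its highest cell, Slc32a1 fell from 8.16 to 1.09 RPM in P2 type 1 and from 3.22 to 1.58 RPM in P5 type 3. Slc17a8 fell from 2.22 to 1.52 RPM and from 4.78 to 3.86 RPM there.

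Slc6a11, the transporter typical of astrocytes, was nearly absent. It passed 10 RPM in 5 cells of the series (2.24%, 0.732 to 5.15%): 1 at E18 (37.5 RPM), 1 of P2 type 2 (200.1 RPM), 2 of P5 type 2 (191.9 and 19.5 RPM) and 1 of P5 type 3 (354 RPM). No read pair was counted in the 22 cells of P2 type 1 or the 13 of P2 type 3, which allows pooled levels of up to 0.0136 and 0.0360 RPM and shares of cells of up to 13.6% and 23.1%. At E18 all 407 read pairs came from 1 cell. Pooled levels were 7.51 RPM in P2 type 2, 0.185 RPM in P5 type 1, 13.4 RPM in P5 type 2 and 16.0 RPM in P5 type 3. Without the highest cell of each group these 4 values were 0.00341, 0.0179, 1.49 and 0.530 RPM.

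Both P5 type 2 cells above 10 RPM were among the cells marked by astrocyte genes. The cell at 191.9 RPM had 9 of the 9 astrocyte markers above 10 RPM, with Gfap at 1478 RPM and Aldoc at 1837 RPM, and it also had Gad1 at 52.4 RPM. The cell at 19.5 RPM had 8 of the 9, with Aldoc at 6320 RPM, Gad1 at 14.9 RPM and Gad2 at 0.397 RPM. Without the 4 marked cells of P5 type 2, 0 of its 15 cells passed 10 RPM, which allows a share of up to 20%, and the pooled level was 0.412 RPM. The other 3 cells above 10 RPM had at most 1 astrocyte marker and had Gfap and Aldoc at 0, with Gad2 at 1149, 157.8 and 2009 RPM. Slc6a13, a GABA transporter of the meninges and liver, had no read pair in any cell.

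Abat, the breakdown enzyme, was confined to a minority of cells in every group and high in a few. It was at 22.1 RPM at E18 (21.8 to 22.4 RPM), 114.9 RPM at P2 (114.1 to 115.8 RPM) and 65.1 RPM at P5 (64.5 to 65.7 RPM). The median cell held 0 RPM at E18 and P2 and 0.125 RPM at P5, while the highest held 369, 2557 and 1276 RPM. Abat passed 10 RPM in 13 of 82 E18 cells (15.9%, 8.72 to 25.6%), 16 of 66 P2 cells (24.2%, 14.5 to 36.4%) and 24 of 75 P5 cells (32%, 21.7 to 43.8%). These intervals overlap between ages.

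P2 type 2 had the highest Abat level of the 7 groups, 202.4 RPM, with 12 of 31 cells above 10 RPM (38.7%, 21.9 to 57.8%) and 8 above 100 RPM. One cell at 2557 RPM held 42.01% of its read pairs, and the other 30 cells came to 121.4 RPM. P2 types 1 and 3 stood at 30.2 and 20.1 RPM, and 3 and 1 of their cells passed 10 RPM. Without their highest cells they stood at 15.4 and 0.823 RPM, and in P2 type 3 that 1 cell held 96.3% of the read pairs. At P5 the types were at 84.6, 46.7 and 46 RPM, with 11 of 34, 5 of 19 and 8 of 22 cells above 10 RPM (32.4, 26.3 and 36.4%). The level of type 1 included cells at 1276 and 1126 RPM. Against the other P5 types its log2 fold was 0.85, and 5.00, 0.19 and -0.28 in sets B, C and D, so no order of the P5 types held across sets.

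Within library sets, Abat at P5 was above E18 in all 3, at 98.7 against 21.3 RPM in set B, 84.6 against 40.7 RPM in set C and 43.9 against 17.6 RPM in set D. In set C 1 of the 17 P5 cells, at 1276 RPM, held 60.6% of the read pairs. Without it P5 stood at 34.7 RPM there, below the 40.7 RPM of E18, and without the highest cell on both sides at 34.7 against 15.8 RPM. In sets B and D the values without the highest cell on both sides were 32.5 against 11.7 RPM and 33.97 against 7.80 RPM. P5 type 1 alone was at 131.6, 88.2 and 38.2 RPM in sets B, C and D, above E18 in each, but without the same cell set C fell to 13.9 RPM, below E18. In P5 type 2 set B held no read pair in its 2 cells, and in P5 type 3 sets B and C stood at 8.38 and 3.12 RPM, below E18. Of the 53 cells above 10 RPM for Abat, 49 were above it for Gad1 or Gad2. The share of cells with Abat was 26.9% among cells with both Gad genes (19.6 to 35.2%) and 17.1% among cells with 1 of them (9.43 to 27.5%). Of the 13 cells with neither Gad gene 4 had Abat, among them the highest cell of all, which had 0.197 RPM of Gad1 and 0.395 RPM of Gad2.

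Aldh5a1 and Akr7a5, which act on the product of GABA transaminase, were rarer than Abat. Aldh5a1 stood at 3.54 RPM at E18, 0.0115 RPM at P2 and 16.4 RPM at P5, above 10 RPM in 4, 0 and 6 cells, and Akr7a5 was in 7, 1 and 2 cells. The 0 of 66 P2 cells allows a share of up to 4.55%. Per kb, pooled Abat was at 4.54 times Aldh5a1 at E18, and at 13.4, 1.35 and 1.095 times in P5 types 1, 2 and 3. These ratios rest on few cells, since Aldh5a1 passed 10 RPM in 2 cells of each P5 type. Without its highest cell, Aldh5a1 fell from 3.54 to 0.711 RPM at E18. In P5 types 2 and 3 it fell from 25.3 to 14.3 RPM and from 30.6 to 6.83 RPM. Abat without its own highest cell stood at 16.4 RPM at E18 and at 26.3 and 23.1 RPM in P5 types 2 and 3. The near levels in these types are therefore no result about the types.

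E18 and P5 were compared by the log2 fold of pooled RPM, each side raised by 1 RPM, as this contrast spans library sets B, C and D on both sides. Tested were the genes that exceeded 10 RPM in 25% or more of the cells at E18 or at P5, and of these 21.2% were past 1 on the log2 scale in either direction. Gad1, Gad2 and Abat were among the genes tested, and 1 of these 3, Abat, was past 1, a count too small to be set against that background. Abat entered through the P5 side alone (32% of P5 cells above 10 RPM and 15.9% of E18 cells), so it was likely to stand higher there, and its fold is given as a description. The log2 fold of Abat was 1.52, with an SD of 0.59 over the 3 sets, which gave 2.16, 1.04 and 1.27. That of Gad1 was -0.03 (SD 0.34) and that of Gad2 -0.15 (SD 0.46), both within the spread between sets. The median fold of all genes tested was -0.21.

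Slc32a1 and Slc6a11 did not reach 25% of cells on either side. Their log2 folds were 1.28 (SD 0.89 over sets) and 2.50 (SD 1.78), with 0.64, 2.38 and 1.20 in sets B, C and D for Slc32a1 and 0.72, 4.11 and 1.48 for Slc6a11. No E18 cell of set C held a read pair of Slc32a1, and none of sets B and C held one of Slc6a11. In those sets the fold could not fall below 0 and its size depends on the 1 RPM added, so the shared sign of the sets is no sign of stability there. The sets free to take either sign were B and D for Slc32a1 and D for Slc6a11. The fold of Slc6a11 was 1.74 without the 16 marked cells. Total counts on genes, edgeR TMM factors and DESeq2 size factors in place of mapped read pairs moved the folds of all genes by 0.20, 0.30 and 0.42, so that Gad1 turned to 0.17, 0.27 and 0.39 and Gad2 to 0.043, 0.15 and 0.26.

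**Figure D4:**
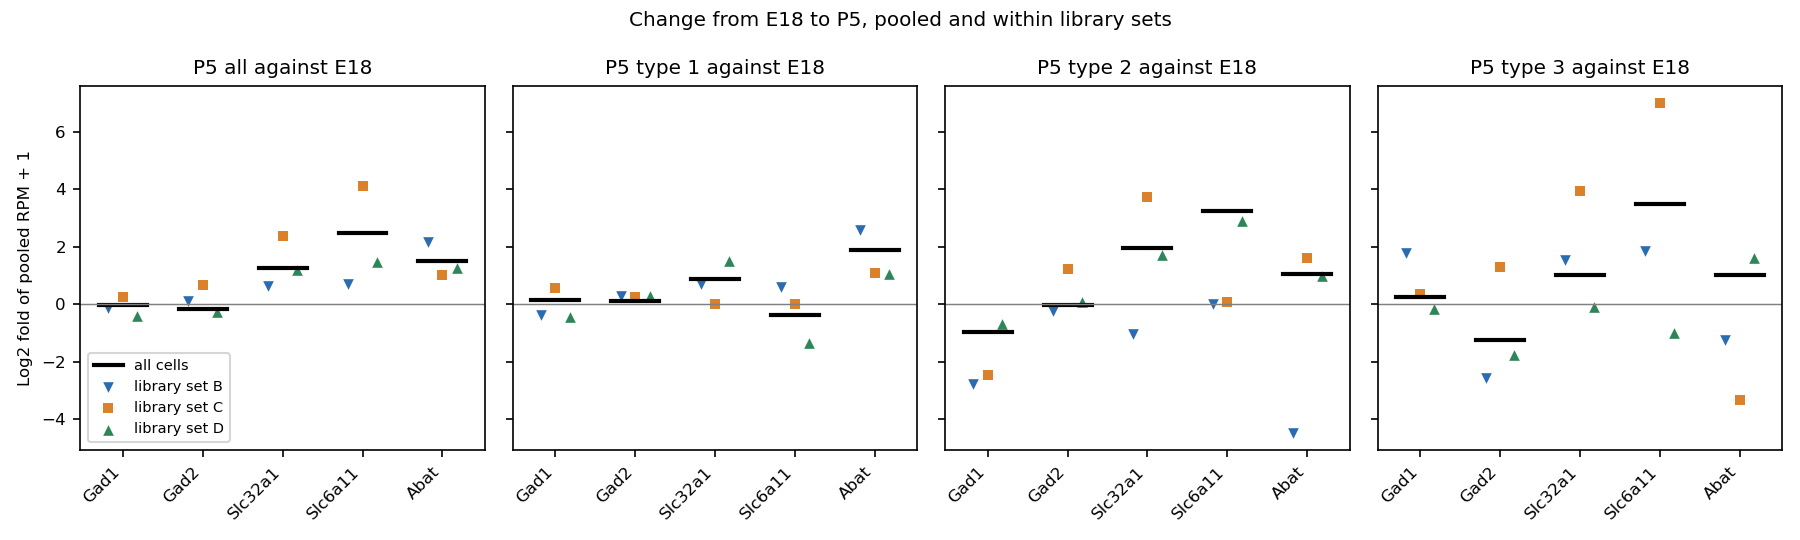
Log2 fold of pooled RPM + 1 at P5 against E18 for each gene (black bars, all cells) and within library sets B, C and D (coloured symbols), for all P5 cells and each P5 type. For all P5 cells, the 3 sets lie between 1.04 and 2.16 for Abat and on both sides of 0 for Gad1 and Gad2. Set C of Slc32a1 and sets B and C of Slc6a11 had no read pair at E18 and could not fall below 0.

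Each P5 type was also set against the same E18 cells, so the 3 comparisons share their control. In each of them Abat again entered through the P5 side alone, where 32.4, 26.3 and 36.4% of the cells of types 1, 2 and 3 had it. In P5 type 1, where 28% of genes were past 1, Abat was past it at 1.89 (SD 0.86), with Gad1 at 0.15 and Gad2 at 0.13. In P5 type 2, where 31.9% of genes were past 1, Abat was at 1.05 (SD 3.35), Gad1 at -0.95 (SD 1.11) and Gad2 at -0.04 (SD 0.77). In P5 type 3, where 56.8% of genes were past 1, Gad2 was at -1.22 (SD 2.04), Abat at 1.03 (SD 2.49) and Gad1 at 0.27 (SD 1.01). Of these folds past 1, only that of Abat in type 1 was larger than its SD over sets, and in set C it was -0.17 without the highest cell of each side. The median fold of all genes tested was -0.81 in P5 type 3, and total counts, TMM and DESeq2 factors moved its folds by 0.80, 0.58 and 0.66, so Gad2 there was at -0.57 with DESeq2 size factors.

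Types of an age were compared each with the remaining cells of that age. At P2, Gad1 was at 1.03 (0.87 without the highest cell of each side) and Abat at -2.40 in type 1 (38% of genes past 1), Abat at 2.84 in type 2 (35.4%), and Abat at -2.63 in type 3 (57%). At P5, none of the 3 members tested was past 1 in type 1 (37.6%), Gad1 was at -1.14 in type 2 (35.9%; SD over sets 1.45), and Gad2 was at -1.30 in type 3 (55.6%; SD 1.86). In that type 3 comparison the median fold of all genes tested was -0.74. Total counts, TMM and DESeq2 factors moved its folds by 0.75, 0.35 and 0.30, so the call of Gad2 past 1 depends on the scaling. At P2 Abat entered in each case through the side where it is high, and its 3 folds restate the level of P2 type 2. With 3 members tested, these counts of 0 to 2 are no result about the members beside such backgrounds. P2 folds have no spread over sets.

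A list of 26 genes of the pathway, the 5 included, gave the setting. Of its 26 genes 11 were tested between E18 and P5, with 2 higher past 1 (Abat and Glud1) and 1 lower (Odc1). These 3 of 11 are near the 21.2% of all genes tested and are no result about the list, which had a median fold of -0.03 against -0.21 for all genes tested. Glud1, encoding glutamate dehydrogenase, was at 44.7 RPM at E18 and 113.7 RPM at P5, with folds of 2.44, 0.26 and 1.67 in sets B, C and D. It too entered through P5 alone (25.3% of cells, and 17.1% at E18). Without the highest cell of each side it was at 36.8 and 70.8 RPM, and its log2 fold fell from 1.33 to 0.93, no longer past 1. Odc1, encoding the ornithine decarboxylase that opens a putrescine route toward GABA, was at 132.1 and 47.5 RPM, above 10 RPM in 64.6% of E18 cells and 25.3% of P5 cells, with folds of -0.34, -2.15 and -1.88.

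Of the genes that supply the precursor, the glutamine transporter genes Slc38a2 and Slc38a1 were at 538 and 136.8 RPM at E18 and at 479 and 172.05 RPM at P5. Slc38a2 had the widest gap between P5 types of the list's tested genes, at 788 RPM in type 1, 322 RPM in type 2 and 29.0 RPM in type 3, in the same order in each of the 3 sets. Type 3 against the other P5 types gave a log2 fold of -4.39, and -5.65, -3.15 and -4.17 in sets B, C and D. Sets B and C held 2 and 3 cells of type 3. In that comparison 43.6% of all genes tested were lower past 1, and the median fold of all tested was -0.74. Pdxk, whose product makes the cofactor that Gad enzymes and GABA transaminase need, was above 10 RPM in 40.9% of P5 type 3 cells (20.7 to 63.6%). In types 1 and 2 it was so in 20.6% (8.70 to 37.9%) and 15.8% (3.38 to 39.6%), and these intervals overlap. Glul, encoding glutamine synthetase of astrocytes, was at 59.2 RPM in P5 type 2, the group of the 4 cells marked by astrocyte genes, and at most at 19.5 RPM elsewhere. Their part in that level was not tested.

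**Figure D5:**
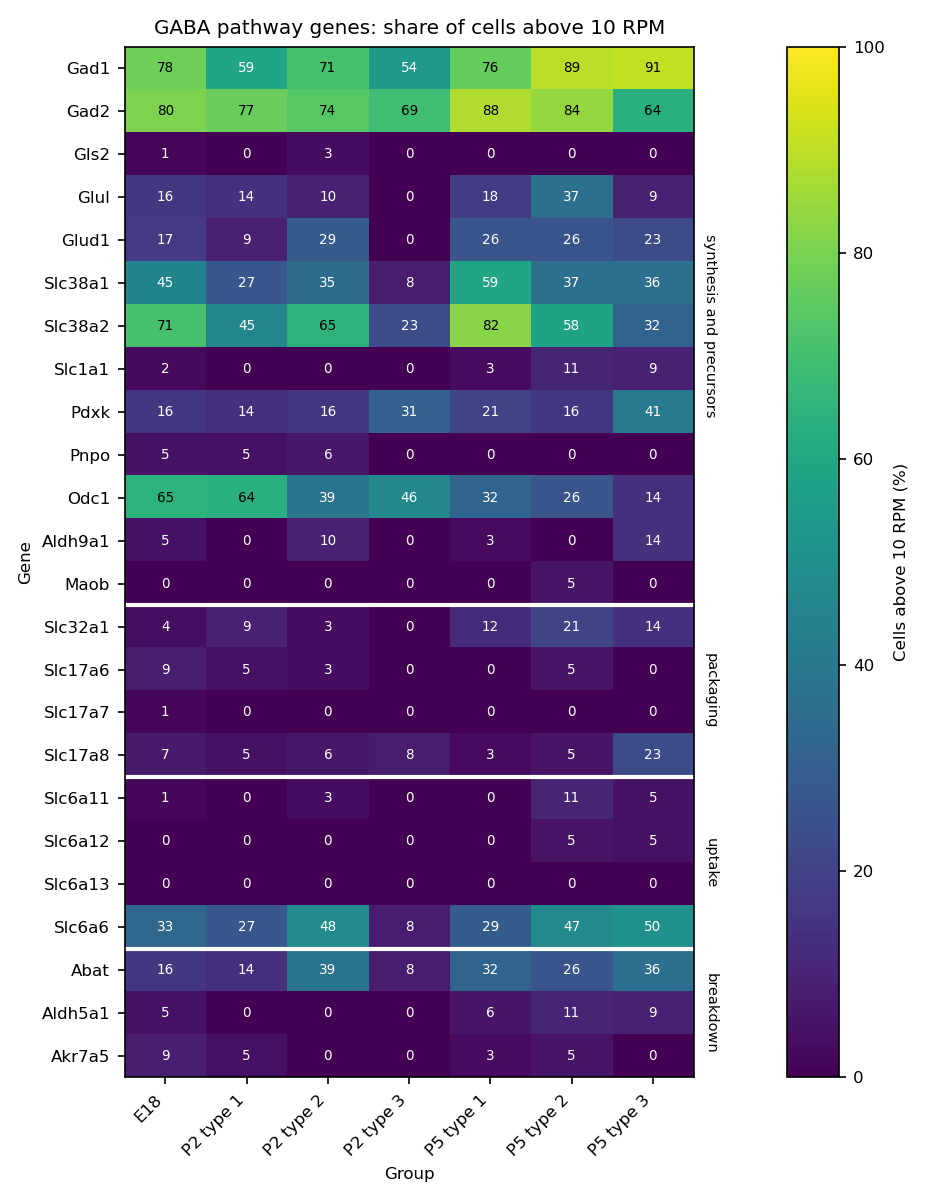
Share of cells above 10 RPM (colour and printed value, %) for 24 of the 26 pathway genes (rows, by role) in the 7 groups (columns). Gad1 lies between 53.8% and 90.9% and Gad2 between 63.6% and 88.2%, while Slc32a1 stays at or below 21.1% and Slc6a13 at 0.

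Genes whose levels ran most like a member over all cells had low correlations. Among 3859 genes that passed 10 RPM in 20% of cells or more, Nrxn3 and Med13l were among the 3 closest to Gad1 (Pearson's r of log2(RPM + 1) of 0.29 and 0.25) and Map1b and Rpl5 among the 3 closest to Gad2 (0.25 and 0.23). For Abat the 3 were 1810013L24Rik, Celf5 and Nipbl (0.27, 0.26 and 0.25), and among 3860 genes Ids, Slc35f1 and Fry for Slc32a1 (0.29, 0.26 and 0.26) and Irak1, Zfp637 and Washc4 for Slc6a11 (0.25, 0.24 and 0.23). Over the 7 group levels the closest were Mtdh, Magi2 and 4930402H24Rik for Gad1 (0.98, 0.94 and 0.93), Gabarap, Snrpg and Smim14 for Gad2 (0.98, 0.97 and 0.97), Sgip1, Napb and Prkar2a for Slc32a1 (0.93, 0.90 and 0.89) and Ksr2, Igsf3 and Elmod1 for Slc6a11 (0.94, 0.94 and 0.93). For Abat they were Lars (0.92) and Inpp4a (0.90), followed by U2surp (0.89). These are the highest of all genes searched over 7 points and are given as a description.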

How the data were processed

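Single Htr3a-GFP+ cells were captured on Fluidigm C1 chips, amplified with SMARTer chemistry and sequenced as read pairs of 50 bases without molecular identifiers. The authors aligned them to GRCm38 (TopHat2, Ensembl annotation), counted read pairs per gene with HTSeq 0.6.1 and deposited these counts, not normalized, with each cell's factor for scaling to RPM. Cells that failed the study's quality control are not analysed here. No column of cells was left unused (0), and no 2 cells held identical counts. Mapped read pairs were taken from the inverse of that factor. Total counts on genes ranged from 1596087 to 11692823 per cell (medians of 5614669 at E18, 4808907 at P2 and 4640651 at P5). The authors checked capture sites for single cells, and doublets were not called.

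Exon lengths (union of exons) and names came from GENCODE M21, which names 42462 of the 43629 identifiers. A fold was called past 1 on the log2 scale with a pseudocount of 1 RPM, and a 0 is given with the limit of 3 counts or 3 cells. Named are the 5 genes, pathway genes that passed 10 RPM in 25% or more of any group, markers that a result turns on, and the 3 genes most like each member over cells and over groups. Slc17a6, Slc17a8, Slc6a13, Akr7a5 and Aldh5a1 were added after their values had been seen. Some genes that this rule names are not reported here. The members, lists and rules were chosen with earlier results of these data known. The alternatives changed the threshold (1 RPM, 50 RPM, any read pair), depth (cells thinned to 1500000 counts), library size, pseudocount (0.1 and 10 RPM), scale, single cells and library sets. The steps were tested on simulated data. TMM factors came from edgeR 4.0.16 and size factors from DESeq2 1.42.0, both run in R 4.3.3. All else was computed in Python 3.11.15 with scipy 1.17.1, pandas 2.3.3 and numpy 2.4.6, and drawn with matplotlib 3.10.9. No sequence is printed, since none was measured here that bears on these levels.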

Additional observations from a re-analysis of the deposited data

How the results depend on the processing

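Shares of cells above 10 RPM at E18 and P5 were within their exact intervals when cells were thinned to 1500000 counts, when total counts on genes set the library size and, for single genes, without the 16 marked cells, an alternative chosen after seeing the data. The level taken as expressed moved them. Above 1 RPM the share was 90.2% for Gad1 and 92.7% for Gad2 at E18, and 97.3% for Gad2 and 12.0% for Slc6a11 at P5. With any read pair it was 95.1% (Gad1), 100% (Gad2), 15.9% (Slc32a1) and 41.5% (Abat) at E18, and 100% (Gad1), 100% (Gad2), 40% (Slc32a1), 21.3% (Slc6a11) and 56% (Abat) at P5. Above 50 RPM it was 67.1% (Gad1) and 0% (Slc6a11) at E18, and 68% (Gad1), 61.3% (Gad2), 0% (Slc32a1) and 21.3% (Abat) at P5. Gad1 or Gad2 was present in 100% of E18 cells above 1 RPM or with any read pair, in 98.6% of E18 cells without the marked cells, and in 100% of P5 cells with any read pair. Both were present in 82.9% of E18 and 89.3% of P5 cells above 1 RPM, and in 95.1% and 100% with any read pair.

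For P5 against E18, the log2 fold moved by more than the SD over sets for Gad1 with DESeq2 size factors (0.39) and in set D (-0.41), for Gad2 in set C (0.66), for Slc32a1 with a pseudocount of 10 RPM (0.34) and in set C (2.38), for Slc6a11 as a mean of log2 values (0.42) and in set B (0.72), and for Abat in set B (2.16). Within a set and without the highest cell of each side, it did so for Gad2 in set C (0.67) and for Slc6a11 in sets B (0.49) and C (0.018). The fold of Abat ranged from 1.04 to 2.16 over its 15 alternatives, but Abat had entered the genes tested through P5 alone. Slc32a1 and Slc6a11 were higher at P5 in all 15, but sets without a read pair at E18 could not give a lower value.

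Of 690 alternative values of folds over all comparisons, 20 turned the direction of a fold past 1. Against E18, these were Gad1 in P2 type 3 with DESeq2 size factors (0.052), which moved all genes of that comparison alike by 1.31, Gad2 in P5 type 3 in set C (1.32), Slc32a1 in P5 type 2 in set B (-1.04) and in P5 type 3 in set D (-0.081), Abat in P5 type 2 in set B (-4.48) and in P5 type 3 in sets B (-1.25) and C (-3.34), Abat in P5 types 2 (-0.63) and 3 (-0.99) as the mean of the folds within sets and in P5 type 1 in set C without the highest cell of each side (-0.17), and Slc6a11 in P5 type 2 without the marked cells (-0.19) and in P5 type 3 in set D (-0.98). Against the other P5 types, they were Slc32a1 in type 2 in set B (-1.86), Gad2 in type 3 in set C (0.78), and Slc6a11 in type 2 in sets B (-0.82) and C (-4.31), as the mean of the folds within sets (-0.36) and without the marked cells (-2.20), and in type 3 in set D (-3.001) and without the highest cells (-0.081). The log2 ratio of Gad1 to Gad2 in P5 type 3 turned in set C (-0.45). The cause was not tested, and these sets hold 2 or 3 cells of P5 types 2 and 3 outside set D. Of the folds past 1 among tested members, that of Gad1 in P2 type 1 against the other P2 types was past 1 in the same direction in 5 of 8 alternatives (lowest 0.57), that of Gad1 in P5 type 2 against the other P5 types in 9 of 12, and those of Gad2 in P5 type 3 in 7 of 12 against E18 and 8 of 12 against the other P5 types. Against E18, that of Abat was so in 14 of 15 in P5 type 1 and in 6 of 12 in each of P5 types 2 and 3. No paired analysis was possible because of the design: each age is 1 pooled sample and cells share no replicate numbers. With library set as a block instead, the mean of the folds within sets for P5 against E18 was -0.086 for Gad1, 0.17 for Gad2, 1.41 for Slc32a1, 2.10 for Slc6a11 and 1.49 for Abat, an alternative chosen after seeing the data, as was leaving out the highest cells within a set. The share of genes past 1 between E18 and P5 was 24.7% over all genes with a count. Thinning to 1500000 counts left out 0 cells, and the number of cells limits the shares of Slc32a1 and Slc6a11 to the intervals given.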
